A study of Mus musculus with 6 samples.

Results

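Gata1, Klf1, Tal1, Epor, Tfrc, Slc4a1, Ank1 and Epb42 are 8 genes of the red cell lineage, taken as a set of regulators, receptors and membrane proteins, and they were followed through the 6 RNA-seq libraries of spleen CD8a+ leukocytes. The members were found by their Ensembl identifiers among the 44678 genes counted, and all 8 were present in the count data. The fit of KO against WT covered the 13024 genes that passed a filter on low counts, and all 8 members were among them. Their levels lay between 1.37 CPM (Epb42) and 130.8 CPM (Slc4a1), counts scaled to the library's sum over the tested genes times its TMM factor, and none differed between the genotypes beyond the spread of the libraries. Instead, 7 of the 8 were highest in the same KO library and lowest in the same WT library, as was globin.

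The 6 libraries, 3 WT and 3 KO, came from untreated mice on the C57BL/6J background, with an age of 8 to 12 weeks stated for the mice of the study. The KO mice carried a constitutive deletion of the cluster that encodes miR-144 and miR-451, with both precursors (Mir144 and Mir451a) removed, so no Cre or cell type is involved. The methods describe magnetic sorting of CD11c+ DCs, CD8+ T cells and CD4+ T cells but do not say which cells were sequenced, and neither source says whether a library came from 1 mouse or from a pool. The p-values below therefore measure only the spread between these libraries. Libraries held between 8143971 and 8876570 counts, and all levels are given as CPM. A floor of 3 counts corresponded to 0.342 to 0.372 CPM. Mir144 and Mir451a had 0 counts in all 6 libraries, WT included, so the deleted genes could not be used to check the genotype labels.

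Red cell precursors are driven by the transcription factors GATA1, TAL1 and KLF1, which switch on globin, heme, receptor and membrane genes together, and GATA1 also switches on the cluster of miR-144 and miR-451. Erythropoietin, read by the receptor that Epor encodes, keeps these precursors alive, and the transferrin receptor (Tfrc) carries iron into them, although it is also used by other dividing cells. Late in maturation the anion exchanger band 3 (Slc4a1) is bound to ankyrin 1 (Ank1) and protein 4.2 (Epb42), which tie the membrane to the spectrin skeleton. The mouse spleen is a site of red cell production as well as of red cell clearance. The paper recalls enlarged spleens in the KO mice from earlier work, which it ascribes to compensatory blood formation outside the marrow. The part of this in the values below was not tested. In bulk libraries such as these, fewer cells of a type and less RNA per cell cannot be told apart.

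The mature products of the deleted locus are shown first, since they define what the KO mice lacked. They are RefSeq sequences placed on GRCm38.p6, 5′ to 3′ on the plus strand of chromosome 11, with the seed (bases 2 to 8) in capitals, and the 3 seeds differ from each other.
miR-144-5p, chr11:78073010-78073032: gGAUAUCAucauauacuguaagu
miR-144-3p, chr11:78073047-78073066: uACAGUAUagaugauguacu
miR-451a, chr11:78073186-78073207: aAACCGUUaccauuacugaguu

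Matches to these seeds were looked for in the annotated 3′-UTR of each member (GENCODE M21, GRCm38), and among the 8 members Tfrc was the gene that held any. Its 3′-UTR, 2458 bp long, contained 2 matches to the miR-144-3p seed (ATACTGT) and 1 match to the miR-144-5p seed (TGATATC). The miR-451a match (AACGGTT) was in no member. Among the 11550 tested genes with an annotated 3′-UTR, 14.2% held a miR-144-3p match, 6.19% a miR-144-5p match and 2.04% a miR-451a match. The Tfrc matches are printed on the plus strand with the match in capitals and the position of the match, and a match of letters is a description, not a tested target site.
Tfrc, miR-144-5p match at chr16:32630528-32630534: tccatgtttgTGATATCttctcagatt
Tfrc, first miR-144-3p match at chr16:32631257-32631263: tatgacagttATACTGTcgttttcttt
Tfrc, second miR-144-3p match at chr16:32632695-32632701: ttgccaacctATACTGTctttgctgaa

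The same Tfrc 3′-UTR is known for iron-responsive elements, short stem-loops through which iron-regulatory proteins stabilize the mRNA when iron is low. A search for an unpaired C, a stem of 5 base pairs and a CAGTGN loop found 4 such elements, and the first miR-144-3p match starts just downstream of the first of them. The loop letters are in capitals.
Tfrc element, chr16:32631220-32631241: attatcggaagCAGTGCcttcc
Tfrc element, chr16:32631599-32631620: attatcgggagCAGTGTcttcc
Tfrc element, chr16:32631664-32631685: tatatcggagaCAGTGAtctcc
Tfrc element, chr16:32631711-32631732: attatcgggaaCAGTGTttccc

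Promoters of the members were read for the letters AGATAA or TGATAA, which GATA factors bind. RefSeq promoters (GRCm38.p6, 250 bases before to 50 after the start) were matched for 6 members with 8 promoters in all, without Slc4a1 and Ank1. Read on both strands, a GATA motif was in 4 of the 8 promoters, those of Klf1, Epor and Epb42 and 1 of the Tal1 promoters, and in 18.6% of 32851 promoters of the same length. The windows below are printed in the direction of the gene, and in each the capitals are the motif as read from the opposite strand. Counted from the RefSeq start, which for Klf1, Epor and Epb42 is not the GENCODE gene end printed with the values, the motif lay at -80 in Klf1, -205 in Tal1, -54 in Epor and -226 in Epb42.
Klf1, chr8:84901890-84901919, plus strand: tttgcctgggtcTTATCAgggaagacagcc
Tal1, chr4:115056209-115056238, plus strand: ctatagagtcttTTATCTttgagcaattcc
Epor, chr9:21963613-21963642, minus strand: ggtggctgtagcTTATCTgtccccagcctg
Epb42, chr2:121037086-121037115, minus strand: gtctctatttccTTATCTcgttcaaacaga

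The composite letters to which GATA1 and TAL1 bind together, CTG and GATA set apart by 8 or 9 bases, were in 3 of the 8 promoters and in 4.69% of all promoters, and this motif can overlap the GATA motif. The KLF1-type letters CCNCNCCC were in 5 of 8 promoters against 49.5% of all, and the E-box CANNTG was in 6 of 8 against 72.3%. For these last 2 motifs the share of all promoters was near that of the members.

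Gata1 (chromosome X, 7959260 to 7978071, minus strand, GRCm38), the master regulator of red cell development, was measured at 3.99, 3.65 and 2.23 CPM in WT libraries 1, 2 and 3 and at 2.66, 6.74 and 4.12 CPM in KO libraries 1, 2 and 3. These values rest on 18 to 56 counts a library. KO library 2 (KO2) was highest and WT library 3 (WT3) lowest, and the genotypes overlapped, with means of 3.29 ± 0.933 CPM in WT and 4.51 ± 2.06 CPM in KO (SD, n = 3 each).

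Klf1 (chromosome 8, 84901928 to 84905291, plus strand), which activates adult β-globin, was measured at 6.50, 5.36 and 1.99 CPM in WT and at 2.66, 9.14 and 5.15 CPM in KO. The means were 4.62 ± 2.35 CPM in WT and 5.65 ± 3.27 CPM in KO (SD, n = 3 each). KO2 was again highest and WT3 lowest, and KO1, the next lowest, lay below WT1 and WT2.

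Tal1 (chromosome 4, 115056426 to 115071755, plus strand), the E-box-binding partner of GATA1, was measured at 13.6, 7.53 and 2.48 CPM in WT and at 5.33, 15.8 and 6.41 CPM in KO. The means, 7.86 ± 5.56 CPM in WT and 9.17 ± 5.74 CPM in KO (SD, n = 3 each), differed by less than the SD of either genotype. Within WT alone Tal1 ranged from 20 to 119 counts. The coefficient of variation was 70.7% in WT and 62.6% in KO, against 12.1% and 11.4% from counting error alone.

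Among the receptors, Epor (chromosome 9, 21958897 to 21963506, minus strand) was measured at 3.42, 2.51 and 2.36 CPM in WT and at 3.94, 6.86 and 2.06 CPM in KO, on 18 to 57 counts. KO2 was highest, and KO3 and WT3 were lowest with 18 and 19 counts, a gap within counting error. The mean was 2.76 ± 0.576 CPM in WT and 4.29 ± 2.42 CPM in KO (SD, n = 3 each). The WT coefficient of variation for Epor, 20.8%, was close to its counting error of 20.6%, whereas in KO it was 56.4% against 16.6%.

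Tfrc (chromosome 16, 32608920 to 32632794, plus strand) was measured at 88.8, 88.7 and 68.9 CPM in WT and at 72.5, 112.1 and 91.7 CPM in KO, with means of 82.1 ± 11.5 and 92.1 ± 19.8 CPM (SD, n = 3 each). It was the steadiest member, with 1.63-fold between its highest library, KO2, and its lowest, WT3. The WT and KO libraries overlapped for Tfrc, the member with the miR-144 seed matches printed above.

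Of the membrane genes, Slc4a1 (chromosome 11, 102348824 to 102366203, minus strand) was measured at 59.3, 45.4 and 9.80 CPM in WT and at 16.8, 130.8 and 48.0 CPM in KO. The range from WT3 to KO2 was 13.3-fold, the widest of the 8 members. The means were 38.2 ± 25.5 CPM in WT and 65.2 ± 58.9 CPM in KO (SD, n = 3 each). Slc4a1 lies 24.3 Mb from Mir144 on the same chromosome, so it is not next to the deletion.

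Ank1 (chromosome 8, 22974844 to 23150497, plus strand), the adaptor between band 3 and β-spectrin, was measured at 14.6, 11.5 and 3.60 CPM in WT and at 5.33, 34.2 and 12.4 CPM in KO. The means were 9.91 ± 5.68 CPM in WT and 17.3 ± 15.03 CPM in KO (SD, n = 3 each). Ank1 was the member with another gene's exons opposite its own, over 862 bp, but that gene, Gm15816, had 2 counts in KO2 and 0 in the other libraries.

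Epb42 (chromosome 2, 121017891 to 121037072, minus strand), the stabilizer of the band 3 complex, was measured at 4.22, 3.08 and 1.37 CPM in WT and at 2.32, 13.7 and 3.21 CPM in KO. KO1 and KO3 lay inside the WT range, and KO2 held 114 counts against 11 to 37 in the 5 other libraries. The means were 2.89 ± 1.44 CPM in WT and 6.41 ± 6.34 CPM in KO (SD, n = 3 each), so the KO SD was about as large as the KO mean.

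**Figure D1:**
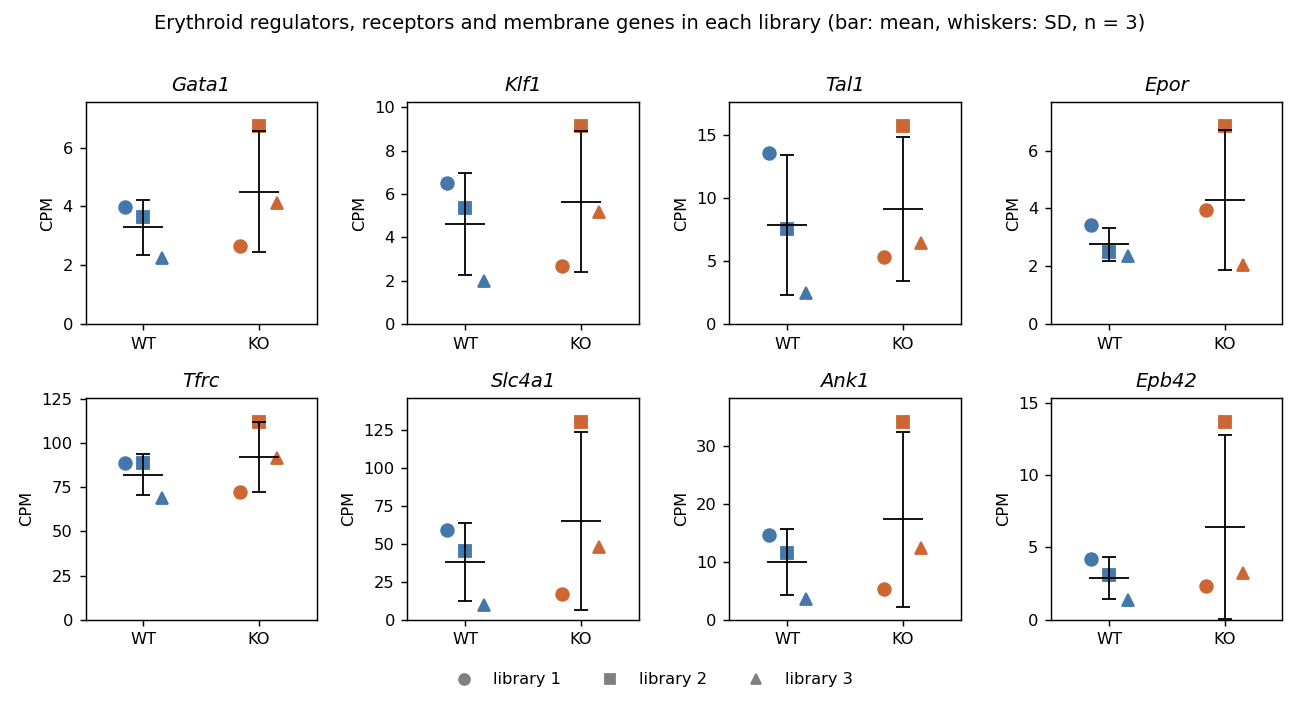
CPM of each of the 8 members by genotype, 1 panel a gene with its own axis starting at 0. Symbols are libraries 1, 2 and 3 of each genotype, and the bar and whiskers are the mean and SD (n = 3). KO library 2 is the top point in all 8 panels and WT library 3 the lowest in 7.

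All 8 members had a higher fitted level in KO than in WT, and none passed the test. The log2 fold changes (KO minus WT, standard error in parentheses) of the regulators were 0.45 (0.40) for Gata1, 0.28 (0.53) for Klf1 and 0.21 (0.60) for Tal1, with adjusted p-values of 0.870, 0.929 and 0.951 by edgeR's quasi-likelihood test. Those of the receptors were 0.63 (0.45) for Epor and 0.17 (0.17) for Tfrc, with edgeR adjusted p-values of 0.841 and 0.875. Those of the membrane genes were 0.77 (0.75) for Slc4a1, 0.79 (0.67) for Ank1 and 1.14 (0.70) for Epb42, with edgeR adjusted p-values of 0.872, 0.870 and 0.818. No difference was larger than the spread between libraries by this test, including that of Epb42, the largest.

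By edgeR, 0 of 8 members passed an adjusted p of 0.05, where 0.0307% of all tested genes did, and 0 of 8 passed an unadjusted p of 0.05, where 6.25% of all tested genes did. DESeq2 and limma voom also called 0 members. No member had WT and KO libraries that did not overlap, where 11.5% of all tested genes had. The share of members with a fold change above 0, 8 of 8, stood beside 50.6% of all tested genes, and the members' median log2 fold change of 0.54 stood beside 0.0030 over all tested genes. The members are not independent of each other, and the direction rested on KO2, as follows.

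Without KO2, 2 of the 8 members were higher in KO. The log2 fold change became 0.04 for Gata1, -0.24 for Klf1 and -0.43 for Tal1, 0.11 for Epor and -0.0006 for Tfrc. It became -0.24 for Slc4a1, -0.17 for Ank1 and -0.071 for Epb42. Leaving out WT3 instead turned Klf1 to -0.090 and Tal1 to -0.22 and left the other 6 above 0. Without KO3, Epor reached a log2 fold change of 0.94 with an unadjusted edgeR p of 0.0334 and an adjusted p of 0.309, the smallest adjusted p of any member under any alternative.

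**Figure D2:**
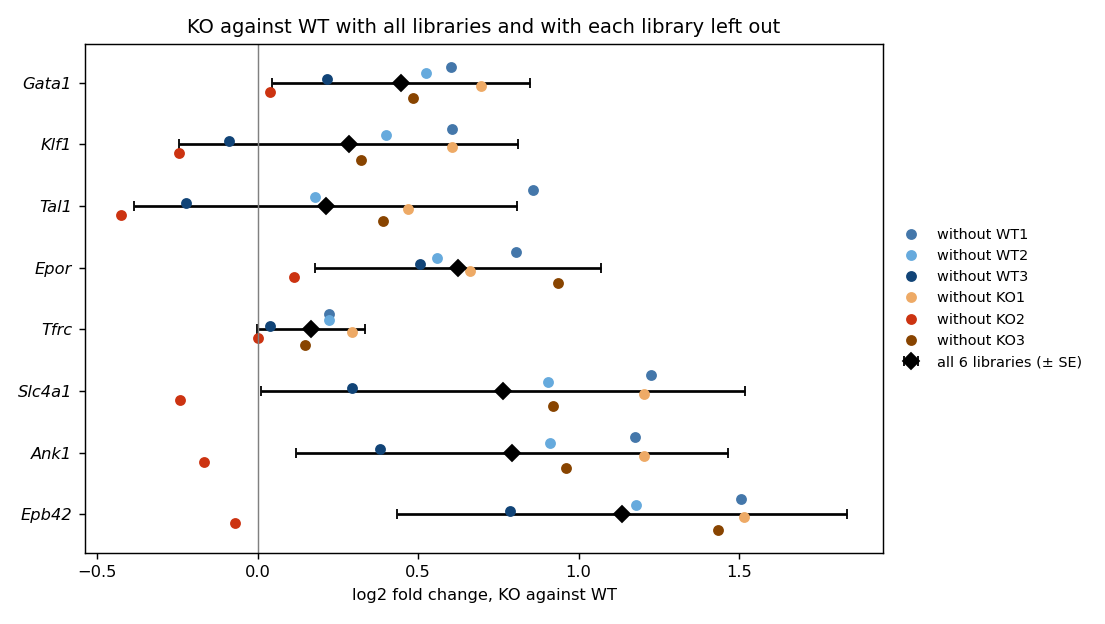
Log2 fold change of each member, KO minus WT, on the horizontal axis, with the value from all 6 libraries, its standard error and the values with 1 library left out. Without KO library 2 the values lie between -0.43 for Tal1 and 0.11 for Epor.

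Most members varied more within a genotype than most tested genes did. The within-genotype SD of log2 CPM was larger than that of 99.5% of tested genes for Slc4a1, 99.2% for Ank1, 98.7% for Epb42, 98.5% for Tal1 and 97.3% for Klf1. It was larger than that of 91.8% of tested genes for Epor, 88.4% for Gata1 and 65.8% for Tfrc. The median over the members was 0.94, against 0.19 over all tested genes, and other lists were as wide, with 1.15 for erythroid output and 1.11 for neutrophil markers. The comparison was not matched on level.

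Of the 8 members, 7 were highest in KO2 and lowest in WT3, a pattern read off after the values were seen and held by 6.17% of all tested genes. KO2 was the highest library for all 8 members and for 22.9% of all tested genes. The order below the top differed between members. From high to low, Slc4a1, Ank1 and Epb42 shared the order KO2, WT1, KO3, WT2, KO1, WT3. Klf1 and Tal1 shared the order KO2, WT1, WT2, KO3, KO1, WT3, and Gata1 and Tfrc the order KO2, KO3, WT1, WT2, KO1, WT3.

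The members did not scale 1 to 1. Against Slc4a1 on the log2 scale over the 6 libraries, the slope was 0.85 for Ank1 and 0.77 for Epb42, which bind the same complex. It was 0.68 for Tal1, 0.61 for Klf1 and 0.41 for Gata1, and 0.25 for Epor and 0.19 for Tfrc. The Ank1 count stayed between 24.6% and 36.7% of the Slc4a1 count in all 6 libraries. The Tfrc count moved from 85.7% of the Slc4a1 count in KO2 to 702.5% in WT3, so the receptor was counted above band 3 in every library but KO2.

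Pearson's r of log2 CPM between members, given as a description over 6 libraries that share their composition, lay between 0.86 and 0.996 for the 21 pairs without Epor, with a median of 0.96. For the 7 pairs with Epor it lay between 0.49 and 0.79. Epor was thus the member least like the rest, and its library order, KO2, KO1, WT1, WT2, WT3, KO3, was that of the summed B cell markers, with the last pair 1 count apart for Epor.

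Globin mRNA, the main product of red cell precursors, was set beside the members. Members and globins were chosen with earlier results known, so their relation is not independent support for either. The summed CPM of Hba-a1, Hba-a2, Hbb-bs and Hbb-bt was 767.6, 507.3 and 230.8 in WT and 417.0, 2514 and 780.5 in KO, a 10.9-fold range. The means were 502 ± 268 CPM in WT and 1237 ± 1121 CPM in KO (SD, n = 3 each). The libraries highest and lowest in globin were those highest and lowest in 7 members.

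Over the 6 libraries Gata1 followed globin closely on the log2 scale, with Pearson's r of 0.98 (exact two-sided permutation p = 0.00139, the smallest possible, adjusted p = 0.00445 over 8 members) and Spearman's rho of 1.0 (exact p = 0.00278, adjusted p = 0.0111). Tfrc also followed globin, with r of 0.95 and rho of 1.0 and the same exact permutation p-values. Epb42, Ank1 and Slc4a1 had r of 0.98, 0.96 and 0.94 and rho of 0.94 each (exact permutation p of rho = 0.0167, adjusted p = 0.0267). Klf1 and Tal1 had r of 0.91 and 0.88 (exact permutation p = 0.0125 and 0.0333, adjusted p = 0.0167 and 0.0381) and rho of 0.83 each (exact p = 0.0583, adjusted p = 0.0667). Epor had r of 0.70 (exact permutation p = 0.131) and rho of 0.26 (exact permutation p = 0.658). Since members and globins were chosen with earlier results known, these permutation p-values describe the libraries and are not a test of the relation. The share of all tested genes that followed globin as closely is not given here.

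With the 2 libraries farthest from the median of globin left out, WT3 and KO2, r was 0.90 for Gata1, 0.85 for Ank1, 0.84 for Epb42, 0.83 for Slc4a1, 0.81 for Tfrc and 0.80 for Klf1. It fell to 0.61 for Tal1 and to -0.50 for Epor. No value was given within a genotype, since each held 3 libraries. Over the libraries left after WT3 and KO2 were dropped, r thus kept its sign for 7 members and turned negative for Epor. These libraries are too few to tell any of the values from no relation.

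**Figure D3:**
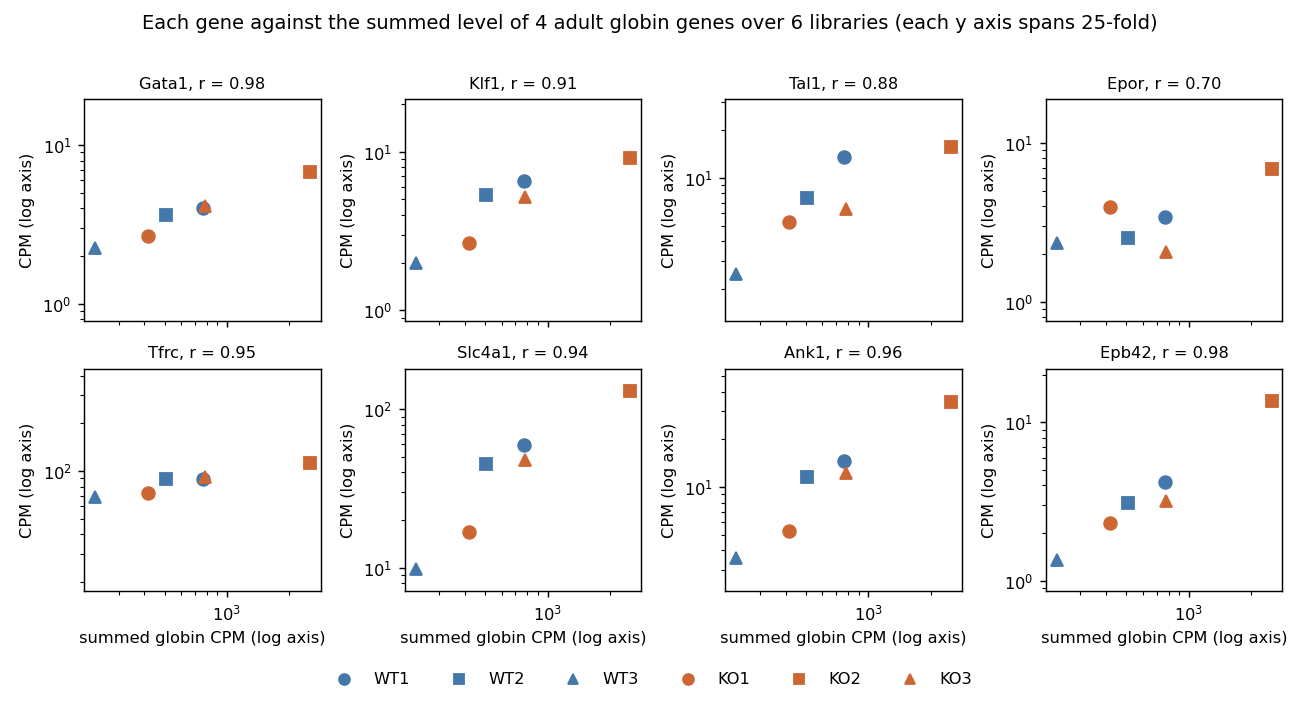
CPM of each member against the summed globin CPM of the same library, both on log axes, with WT and KO libraries in different colours. Gata1 and Tfrc rise with globin in every step over the 6 libraries, and Epor does not, with its lowest value in KO library 3.

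Levels were compared between members per kb of merged exons. The means over the 6 libraries were 14.1 ± 2.503 CPM per kb for Tfrc and 10.6 ± 8.84 for Slc4a1. They were 3.36 ± 1.71 for Klf1, 1.94 ± 1.17 for Tal1, 1.77 ± 0.894 for Epor and 1.60 ± 0.648 for Gata1, and 1.01 ± 0.809 for Ank1 and 0.859 ± 0.838 for Epb42 (SD, n = 6). Slc4a1 was above Klf1, Klf1 above Tal1 and Gata1 above Ank1 in all 6 libraries. Tfrc was above Slc4a1 in 5 libraries, while Tal1 and Epor, Epor and Gata1, and Ank1 and Epb42 kept their order in 4 libraries each and were not separated. With the mean length of coding transcripts in place of merged exons, Gata1 rose to 3.90 CPM per kb, above Klf1, and Ank1 to 2.498, so the order of the lower 6 depended on the length used.

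By the likeness of log2 CPM over the 6 libraries, the tested genes most like Gata1 were Sox6 (r = 0.997), a repressor of embryonic globin, and Sptb (0.995), which encodes β-spectrin. Sptb (0.997) and Sox6 (0.993) were also those most like Tfrc. Klf1 was most like Slc38a5 (0.999) and Cldn13 (0.998), and Epb42 was most like Dmtn (0.993), which encodes the actin-bundling protein dematin, and Anxa9 (0.990). Ank1 was most like Slc4a1 itself (0.995) and Pcm1 (0.993). In WT3, Slc38a5 lay at 0.248 CPM, under the floor, and Cldn13 and Sox6 lay at 0.372 CPM, at the floor.

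Tal1 was most like Ccnb1 (0.998), cyclin B1, and Spc25 (0.992), a kinetochore gene, and Slc4a1 was most like Cip2a (0.998) and Ccna2 (0.997), cyclin A2. Epor stood apart again, with Tpp1 (0.996), a lysosomal protease gene, and Lpcat1 (0.996). These r values are the highest of 13024 over 6 points and are descriptions, with no p. They compare the shape of the values over libraries, not their range. Cip2a ran from 9.31 CPM in WT3 to 12.4 CPM in KO2, where Slc4a1 ran from 9.80 to 130.8 CPM. Pcm1, named with Ank1, and Tpp1, named with Epor, also varied little, from 79.7 to 103.6 CPM and from 62.4 to 80.1 CPM.

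Other genes of the same pathways were read from lists written with earlier results of these data known. Of 16 further erythroid regulators, 12 were higher in KO with a median log2 fold change of 0.13, and none passed the adjusted test. The median was 0.060 without KO2, 0.24 without WT1 and 0.31 without KO3. Gata2, the stem and progenitor GATA factor, was measured at 2.40, 1.48 and 2.61 CPM in WT and at 9.26, 4.93 and 1.83 CPM in KO, highest in KO1, not KO2, with a log2 fold change of 1.30 (edgeR adjusted p = 0.786). Of the 16, Gfi1b, a repressor bound with GATA1, was highest in KO2 and lowest in WT3, a share of 6.25% that was near the 6.17% of all tested genes.

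Klf3, a repressor of the KLF1 family, was highest in WT2 and lowest in KO2, with a log2 fold change of -0.17 (edgeR adjusted p = 0.817). Ldb1 and Tcf3, the regulators of highest level per kb and partners of TAL1 in its complex, had log2 fold changes of -0.06 and 0.07. Of the 11 tested genes of EPO receptor signaling, 7 were higher in KO, the median was 0.053 (-0.028 without KO2) and none passed the adjusted test. Kit, the stem cell factor receptor that acts beside Epor in early precursors, was measured at 16.7, 20.99 and 19.2 CPM in WT and at 24.2, 32.1 and 27.5 CPM in KO. The genotypes did not overlap for Kit, which was higher in KO, or for Klf3 and Socs3, which were lower in KO. Over all tested genes, 11.5% did not overlap. The log2 fold change of Kit, 0.56, had a standard error of 0.15 and an edgeR adjusted p of 0.624. Socs3, an inhibitor of cytokine receptors, had a log2 fold change of -0.23 (edgeR adjusted p = 0.786). The list's genes of highest level per kb, the phosphatase gene Ptpn6 and the kinase gene Pim1, had log2 fold changes of 0.14 and 0.20.

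Of 19 other tested membrane skeleton genes, 16 were higher in KO, with a median log2 fold change of 0.35, and none passed the adjusted test. That median rested on single libraries, since it was -0.059 without KO2, 0.042 without WT3 and 0.84 without WT1, and it was 0.19 with limma voom. The genes of this list differed in how far they varied, without a clear division. Over 4-fold between libraries were 10 genes, Sptb, Add2, Dmtn, Rhag, Rhd, Kel, Aqp1 and Ermap among them, against 5.99% of all tested genes, and 12 of the 19 were highest in KO2 and lowest in WT3. Sptb, β-spectrin, ran from 4.96 CPM in WT3 to 48.8 CPM in KO2, and Rhag, a membrane protein of the Rh complex, from 1.117 CPM, on 9 counts, to 10.3 CPM in the same libraries. Tspan33 and Xk, the 2 genes of smallest unadjusted p in this list, had log2 fold changes of 0.78 and 0.56 (edgeR adjusted p = 0.786 each). They varied 3.15-fold and 2.11-fold between libraries, and Xk alone of the list had genotypes that did not overlap. Add1, Add3, Epb41 and Tmod1 varied between 1.14-fold and 1.23-fold. Add2 and Kel were highest in KO2 but lowest in KO1, and Gypc, which varied 1.45-fold, was among the 12.

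Iron genes were the list with the smallest adjusted p. Slc40a1, ferroportin, which exports iron from macrophages, was measured at 89.8, 68.8 and 69.6 CPM in WT and at 207.0, 253.7 and 110.3 CPM in KO. Its genotypes did not overlap, which held for 3 of the 14 iron genes and for 11.5% of all tested genes. Its log2 fold change of 1.32 (standard error 0.28) had an edgeR adjusted p of 0.427. The call depended on the setting, since the adjusted p was 0.000169 with DESeq2 and 0.00634 by edgeR without KO3. Trf, transferrin, the ligand of Tfrc, had a log2 fold change of 0.93 (edgeR adjusted p = 0.738), and the receptor's own value was 0.17, as above. The ferritin genes Ftl1 and Fth1, of highest level per kb, had log2 fold changes of 0.40 and 0.19. Of the 14 iron genes, 12 were higher in KO, and 4 had an unadjusted p under 0.05, where 6.25% of all tested genes had. Beside them, 7 of the 8 red pulp macrophage markers had an unadjusted p under 0.05, with a median log2 fold change of 1.18 and an adjusted p of at least 0.610 in edgeR, and their part in the values of the iron genes was not tested.

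The 9 tested genes of erythroid output had the largest median log2 fold change of the 5 pathway lists, 1.10, with 8 of 9 higher in KO and 8 highest in KO2 and lowest in WT3, and 0 passed the adjusted test or an unadjusted p of 0.05. This median was 0.054 without KO2, 0.68 without WT3 and 1.60 without WT1. Hbb-bs and Hba-a2, the globins of highest level per kb, had log2 fold changes of 1.48 and 1.30 (edgeR adjusted p = 0.797 and 0.817). Alas2, the first enzyme of erythroid heme synthesis, ran from 3.85 CPM in WT3 to 39.3 CPM in KO2. Ahsp was not analysed here.

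Markers of other cell types moved with KO2 too, and their values stand here beside the members. Summed T cell markers (5 genes, led by Cd8a and Cd8b1) were 1975, 2693 and 2605 CPM in WT and 1777, 1287 and 2594 CPM in KO, lowest in KO2. Summed red pulp macrophage markers (8 genes, led by Hmox1 and Vcam1) were 645.7, 444.8 and 418.4 CPM in WT and 1218, 1545 and 557.3 CPM in KO, highest in KO2 and lowest in WT3. Neutrophil markers (5 genes, led by S100a9 and S100a8) ranged from 202.5 CPM in WT3 to 1037 CPM in KO2, and eosinophil markers (5 genes, led by Ccr3 and Prg2) from 25.4 CPM in WT3 to 96.3 CPM in KO2. These macrophage, neutrophil and eosinophil lists put KO1 next to KO2 at the top, whereas 7 members had KO1 next to WT3 at the bottom. The order of the libraries thus differed between these lists and the members. Basophil or mast cell markers, given below, had WT1 next to KO2 at the top, as had Klf1, Tal1, Slc4a1, Ank1 and Epb42.

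The sum of 10 genes of dividing cells, led by Pcna and Mki67, ran from 486.8 CPM in WT3 to 742.4 CPM in KO2, in the library order of Gata1, Tfrc and globin. B cell markers (4 genes, led by Cd79a and Ms4a1) ranged from 798.2 CPM in KO3 to 1847 CPM in KO2, and basophil or mast cell markers (5 genes, led by Hdc and Mcpt8) from 12.9 CPM in KO3 to 45.1 CPM in KO2. Megakaryocyte or platelet markers, which share GATA1 and TAL1 with red cells, summed to 10.9 to 20.3 CPM over 9 genes, led by Itga2b and Gp1ba, and had their lowest value in KO3. Summed CD8a+ DC markers (5 genes, led by Itgax and Flt3) were 178.3 to 195.8 CPM in WT and 218.3 to 240.0 CPM in KO, and no gene of any of these lists was at 0 in every library. The part of these other cells in the members' differences was not tested.

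**Figure D4:**
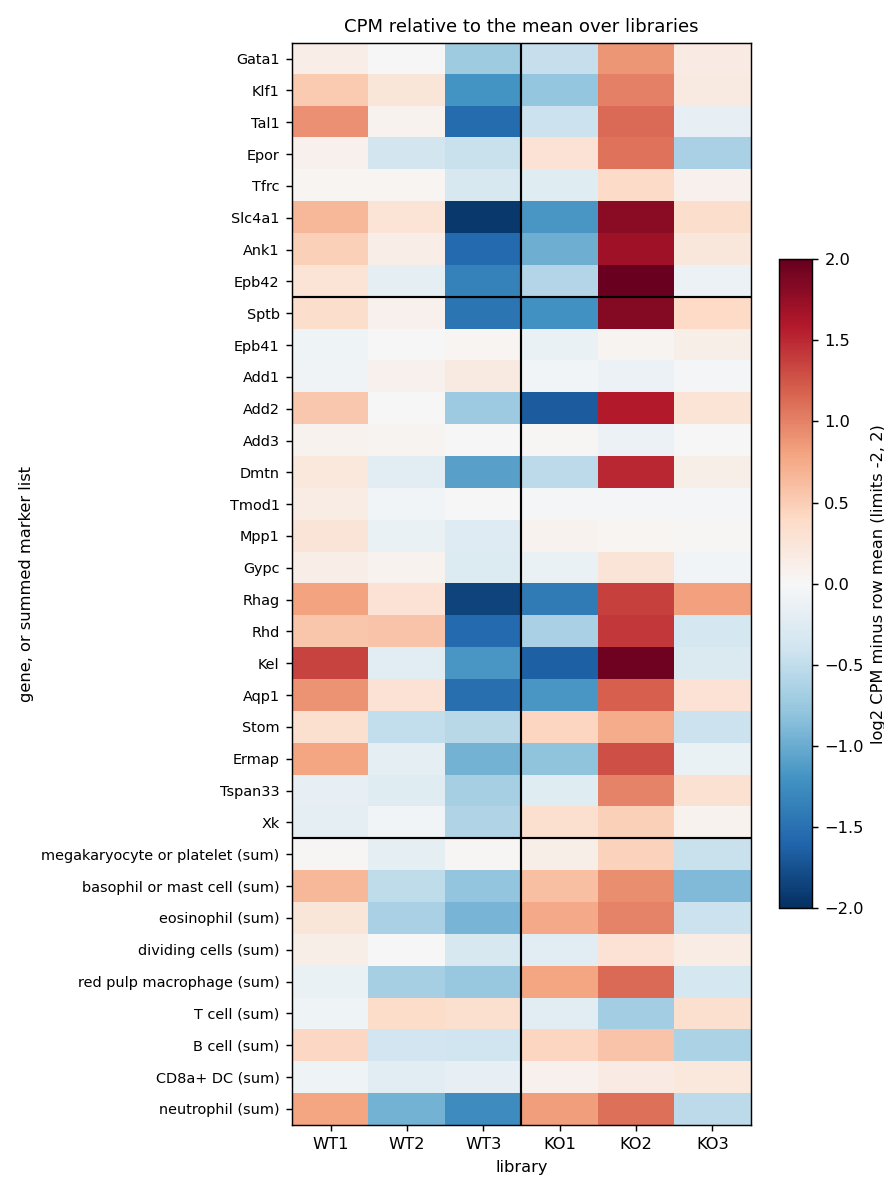
Log2 CPM in each library (columns) relative to the mean over the 6 libraries, for the 8 members (top block), other membrane skeleton genes (middle block) and the summed markers of 9 cell types or states (bottom block), with red above the mean, blue below it and colours capped at -2 and 2. KO library 2 is the highest column for all 8 members and WT library 3 the lowest for 7, while the macrophage, neutrophil and eosinophil sums are also high in KO library 1.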

How the data were processed

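RNA-seq of spleen CD8a+ leukocytes was available for 3 WT and 3 KO libraries, grouped by the genotype in the sample labels. For each gene the authors deposited an expected count, which is an estimated number of reads that can be fractional and that was not scaled for depth or length. The unit was read from the values. The submitters' processing notes name the build (GRCm38, mm10). The aligner, counting tool, gene models and strand setting are not given in the sources used here. Of the 44678 identifiers, 44121 matched GENCODE M21, which gave symbols, positions, exon lengths and 3′-UTRs.

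Counts were rounded to whole numbers. KO was compared with WT in edgeR 4.0.16 (R 4.3.3) with TMM normalization, filterByExpr (minimum count 10, minimum total 15) and its quasi-likelihood test. P-values were adjusted by Benjamini-Hochberg over all 13024 tested genes, at a threshold of 0.05. CPM used the sum of each library over the tested genes times its TMM factor. These factors lay between 0.989 and 1.01. The floor covers counting error only. Correlations used exact permutation tests (scipy 1.17.1) on log2 values. Likeness used log2 CPM with a prior count of 2. Sequences came from RefSeq tables (GRCm38.p6) and the GENCODE M21 transcripts.

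The genes named were all 8 members, and of each pathway list up to 3 rising and 3 falling genes with an adjusted p under 0.05 (there were none), the 2 of smallest p and the 2 of highest level per kb. The 2 genes most like each member, and the 2 markers of highest level in each cell type list, were also named. Other genes in the text were chosen after their values were seen. The members and lists were chosen with earlier results of these data known. Alternatives were DESeq2 1.42.0, limma voom (limma 3.58.1), other normalization, no filter, a mean count filter of 10, the replicate number as a block, another exon length and each library left out in turn. Single genes of the membrane skeleton list that are not named are not reported here.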

Additional observations from a re-analysis of the deposited data

How the results depend on the processing

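Of 104 values of the members' log2 fold changes under alternatives, 96 kept their direction, 8 changed sign and none passed the adjusted threshold (smallest adjusted p = 0.309). The changes of sign came without KO2 (Klf1, Tal1, Tfrc, Slc4a1, Ank1 and Epb42) or without WT3 (Klf1 at -0.090 and Tal1 at -0.22). With 1 library left out, the ranges were 0.04 to 0.70 for Gata1, -0.24 to 0.61 for Klf1, -0.43 to 0.86 for Tal1, 0.11 to 0.94 for Epor, -0.0006 to 0.29 for Tfrc, -0.24 to 1.23 for Slc4a1, -0.17 to 1.204 for Ank1 and -0.071 to 1.52 for Epb42, and 0.060 to 0.31 for the median of the other erythroid regulators, -0.059 to 0.84 for that of the membrane skeleton and 0.054 to 1.60 for that of erythroid output. The cause was not tested.

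The number of genes called was 4 over all tested genes, 58 with DESeq2, 12 with no filter, and 2 to 94 with 1 library left out (94 without KO3). Of the iron genes 0 were called, 1 with DESeq2 (Slc40a1) and 0 to 3 with 1 library left out (3 without KO3: Slc40a1, Trf and Hfe). With the mean length of coding transcripts, levels per kb were 3.90 for Gata1, 2.91 for Epor, 37.8 for Tfrc and 2.498 for Ank1.

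With the replicate number as a block (replicate block), 9 genes were called and no member was. The log2 fold changes were 0.40 for Gata1, 0.29 for Klf1, 0.33 for Tal1, 0.52 for Epor and 0.15 for Tfrc. They were 0.72 for Slc4a1, 0.68 for Ank1 and 0.88 for Epb42, and that of Tal1 rose from 0.21. Same-numbered libraries did not deviate together (r = -0.0101, -0.199 and 0.111), and WT and KO libraries come from different mice. Whether same-numbered libraries shared a day or batch is not given, and these few values cannot settle it.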
